A study of Homo sapiens with 8 samples.

Results

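The genes that varied among 4 similar RNA-seq libraries of the human pancreatic ductal adenocarcinoma (PDA) line SUIT2 were examined. These were 4 of the 8 libraries of the series: the libraries titled shScr_1 and shScr_2, which carried a scrambled short hairpin RNA (shRNA), and those titled shEn1_1.2 and shEn1_2.2, which carried 1 shRNA construct each against *EN1*, a homeobox transcription factor gene. They were set in pairs of nearest neighbours, shScr_1 with shEn1_1.2 and shScr_2 with shEn1_2.2, after the counts had been seen. The choice was exploratory. Each pair holds 1 library of each label, so a difference between the pairs is not one between scrambled and *EN1* shRNA. By their titles, shEn1_1.2 and shEn1_2.2 carry different *EN1* constructs. Between these libraries, pair and construct therefore cannot be told apart.

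SUIT2 is an established epithelial line grown from a liver metastasis of a human PDA. All 4 libraries shared the line and the polyadenylated RNA assay, and differed in the labels by the shRNA only. Nothing in the labels says whether the libraries came from separate cultures, so the spread between them may be technical, and no label names a day, passage or batch that the pairs would share. The 4 libraries held 33423590 to 37810604 counted reads over 25702 genes, with 16090 to 16370 genes detected and 5.94 to 6.60% of reads in the top 10 genes. All 8 epithelial and ductal markers examined were above the filter on low counts, whereas 2 of 9 fibroblast, 3 of 10 immune, 2 of 6 endothelial and 1 of 9 acinar or endocrine markers were. Of these, 5 fibroblast, 5 immune, 4 endothelial and 7 acinar or endocrine markers had 0 reads in all 4 libraries. *COL1A2*, *COL3A1*, *PTPRC*, *CD3E*, *CDH5* and *INS* were among them. Other members were detected: *CD68* had 543 to 843 reads, *ACTA2* 71 to 153, *LYZ* 19 to 105 and *COL1A1* 34 to 68.

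The targeted gene, *EN1*, went against its labels in these libraries. It had 136 reads in shScr_1, 167 in shScr_2, 184 in shEn1_1.2 and 218 in shEn1_2.2. On the CPM scale, the count divided by the scaled library total, the mean of shScr_1 and shScr_2 was 4.19 ± 0.281 (SD, n = 2) and that of shEn1_1.2 and shEn1_2.2 was 5.90 ± 0.872 (SD, n = 2), so both values under the knockdown label were the higher ones. An exact two-sided permutation test gave p = 0.333, which is the smallest value that 2 libraries against 2 allow. Everything below therefore names libraries by their labels without taking a reduction of *EN1* as given.

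Several of the gene groups that separated the pairs belong to metabolic and stress programmes with known switches. NRF2, encoded by *NFE2L2*, is a transcription factor that is held in the cytoplasm by KEAP1 and is released by oxidants and electrophiles, and its targets make glutathione, import cystine and detoxify aldehydes. SREBP proteins, made from *SREBF1* and *SREBF2*, are released from the endoplasmic reticulum when sterols are scarce and switch on cholesterol and fatty acid synthesis, and the liver X receptors are nuclear receptors for oxysterols that themselves drive *SREBF1* and the cholesterol exporters. Retinoic acid, made from retinol by a chain of dehydrogenases, acts through the nuclear retinoic acid receptors.

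The pairs were close to each other. The distance between 2 libraries, as the root mean square log2 CPM difference over the 14273 genes that passed the filter, was 0.501 for shScr_1 and shEn1_1.2 and 0.484 for shScr_2 and shEn1_2.2. It was 0.542 between the libraries labelled shScr, 0.493 between those labelled shEN1 and 0.545 and 0.547 for the remaining combinations. The library shEn1_1.2 thus lay nearer to shEn1_2.2 than to its own partner over all genes. Among genes with a mean of 10 CPM or more the order was different: shEn1_1.2 was nearest to shScr_1, at 0.207, but shEn1_2.2 was nearer to shEn1_1.2, at 0.236, than to its partner shScr_2, at 0.251. No 2 of the libraries held identical counts, and no pair of them agreed within sampling noise, the chi-square statistic per gene being 21.5 to 53.8. The pairing therefore captured 1 of several ways in which these libraries differed.

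A gene was counted as separating the pairs when its log2 CPM values did not overlap and the nearest libraries of the 2 pairs were at least 1.5-fold apart, a distance called the gap here. This held for 454 of 14273 genes (3.18%), of which 175 (1.23%) were higher in shScr_1 and shEn1_1.2 and 279 (1.95%) were higher in shScr_2 and shEn1_2.2. Since the same counts set the pairs, no test was made of this difference, and the values are a description. Without the 1.5-fold condition the pairs did not overlap at 5228 genes (36.6%), against 6200 (43.4%) for the labels. If the 4 values of a gene stood in random order, a split of 2 against 2 would not overlap with a probability of 0.333. The share for the pairs was near that. Most of these were small steps: the median absolute log2 difference was 0.178 within the first pair, 0.216 within the second and 0.146 between the means of the pairs. Across genes, the difference of the shScr libraries and that of the shEN1 libraries had a Pearson r of 0.207, over 4 libraries that share depth and protocol. Just inside the limit, which is 0.585 on the log2 scale, lay *ORAI3* and *RPS29*, each at a gap of 0.586, and just outside it *C11orf52* at 0.583 and *MEIS2* at 0.582.

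**Figure D1:**
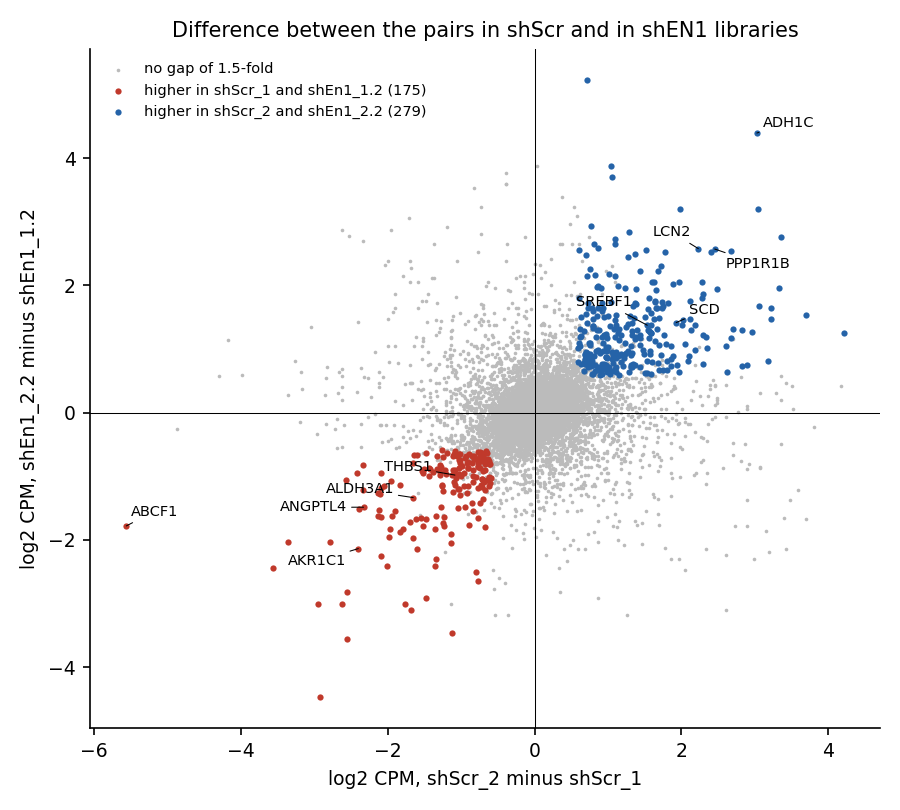
Each point is 1 of the 14273 genes, with the log2 CPM difference shScr_2 minus shScr_1 on the horizontal axis and shEn1_2.2 minus shEn1_1.2 on the vertical axis. The 175 genes higher in shScr_1 and shEn1_1.2 are red at lower left, the 279 higher in shScr_2 and shEn1_2.2 are blue at upper right, and the grey cloud at the centre shows that most genes differed little in either comparison.

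Genes with a gap were mostly of low abundance. Their median was 1.54 CPM for those higher in shScr_1 and shEn1_1.2 and 1.05 CPM for those higher in shScr_2 and shEn1_2.2, against 22.9 CPM over all genes tested, and 54.9% and 61.6% of them were under 2 CPM, against 17.8% of all genes. At such counts a 1.5-fold step is near the sampling error, so the genes named below as the leading ones were taken from those with a mean of at least 2 CPM. The filter asked for enough reads in only 2 libraries. A scarce gene could therefore pass it through the pair where it was higher.

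Lipid synthesis genes were higher in shScr_2 and shEn1_2.2. Of the 36 cholesterol synthesis and SREBP target genes tested, 23 were higher in that pair with no overlap (18.1% of all genes were) and 0 were higher in the other pair (18.6% of all genes were), and the median log2 difference was 0.32, against 0.0035 over all genes. A gap was present at 4 of the 36, all higher in that pair (1.95% of all genes were), among them *INSIG1*, *SCD* and *SREBF1*.

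*SREBF1*, the gene of the SREBP form that favours fatty acid synthesis, stood at 47.6 CPM in shScr_1 and 48.3 CPM in shEn1_1.2, against 138 CPM in shScr_2 and 125 CPM in shEn1_2.2. The partners nearly coincided, and the second pair was 2.74-fold higher on average. *SREBF1* lies on the minus strand of chromosome 17, at 17713713 to 17740316 in GRCh37 (hg19). *SCD*, the stearoyl-CoA desaturase that makes monounsaturated fatty acids, had 168 and 149 CPM in shScr_1 and shEn1_1.2 and 639 and 397 CPM in shScr_2 and shEn1_2.2, a 3.19-fold difference of the pair means with more spread inside the second pair. *INSIG1*, which retains SREBP in the endoplasmic reticulum and is itself an SREBP target, had 12.8 and 10.2 CPM against 55.6 and 28.3 CPM in the same order.

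Other enzymes of the pathway differed less. *DHCR7*, the last enzyme of one branch of cholesterol synthesis, stood at 83.8 and 91.1 CPM against 125 and 121 CPM. *FASN*, fatty acid synthase, had overlapping values, with 362 and 487 CPM against 454 and 610 CPM. *FADS2*, a desaturase of polyunsaturated fatty acids, was the one member with a log2 difference below 0, at -0.19, with overlapping values. Summed over the 36 genes, the level was 2891 and 2937 CPM in shScr_1 and shEn1_1.2 and 4015 and 3797 CPM in shScr_2 and shEn1_2.2.

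Promoters of these genes were searched for the sterol regulatory element in the letters TCACNCCAC on both strands, since the list is defined by a factor that reads it. RefSeq promoters (GRCh38.p14, 250 bases before to 50 after the start) were at hand for 10854 tested genes, of which 115 (1.06%) held the letters, and for 28 of the 36 list members, of which 1 did. That member was *SREBF2*, which had 68.7 and 63.8 CPM in the first pair and 82.5 and 86.9 CPM in the second. Its stretch, with the element in capitals, lies on the plus strand of chromosome 22 at 41832962 to 41832990.
SREBF2: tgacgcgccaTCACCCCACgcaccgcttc
The search says only where these letters stand in this window.

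Genes of the liver X receptor response stood in the same direction. This list, and the retinoic acid and lipid droplet lists below, was chosen after the values were seen, so its counts describe the genes that led to it. Of 12 genes tested, 4 had a gap, all higher in shScr_2 and shEn1_2.2 (1.95% of all genes were), namely *ABCG1*, *SCD*, *SREBF1* and *ABCA1*. Of these, *SCD* and *SREBF1* are also members of the SREBP list above with a gap. The median log2 difference was 0.53. *ABCG1*, a cholesterol exporter, had 2.17 CPM in shScr_1 and 1.12 CPM in shEn1_1.2, against 7.60 CPM in shScr_2 and 6.72 CPM in shEn1_2.2. *ABCA1*, the exporter that loads cholesterol onto apolipoproteins, was barely detected, at 0.294, 0.230, 0.684 and 0.657 CPM in the order shScr_1, shEn1_1.2, shScr_2 and shEn1_2.2. *NR1H3*, the gene of liver X receptor alpha, had 13.7 and 13.2 CPM in the first pair and 18.7 and 18.9 CPM in the second.

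Retinoid genes included the largest gap among genes with a mean of at least 2 CPM. *ADH1C*, an alcohol dehydrogenase that can oxidise retinol and lies on the minus strand of chromosome 4 at 100257654 to 100273903 (hg19), had 3.67 CPM in shScr_1, 1.15 CPM in shEn1_1.2, 30.3 CPM in shScr_2 and 25.2 CPM in shEn1_2.2. The pair means differed 13.1-fold and the nearest libraries 6.79-fold, although the first pair itself spread widely. Its near relatives *ADH1A* and *ADH1B* could share reads with it.

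*DHRS3*, a retinaldehyde reductase induced by retinoic acid, had 61.7 CPM in shScr_1 and 41.1 CPM in shEn1_1.2, against 156 CPM in shScr_2 and 132 CPM in shEn1_2.2. *STRA6*, the membrane receptor that takes up retinol, had 7.14 and 3.59 CPM against 15.3 and 16.1 CPM. *DHRS9*, which oxidises retinol, had 2.47 and 1.38 CPM against 7.71 and 5.91 CPM. The receptor *RARG* was the retinoic acid receptor gene with a gap, at 26.7 and 26.6 CPM against 43.4 and 49.6 CPM. In all, 6 of the 18 retinoic acid response genes tested had a gap, all of them higher in shScr_2 and shEn1_2.2 (1.95% of all genes), and the list median was 0.51 on the log2 scale. *CYP26B1*, which clears retinoic acid, stood the other way, at a log2 difference of -0.46, and *TGM2*, a classical retinoid target, was near level at -0.15.

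Secreted and epithelial products were among the leading genes of this direction. *LCN2*, which encodes the iron-siderophore binding protein lipocalin-2, had 17.7 CPM in shScr_1 and 13.9 CPM in shEn1_1.2, against 83.5 CPM in shScr_2 and 83.1 CPM in shEn1_2.2, a 5.29-fold difference in which the second pair agreed closely. *PPP1R1B*, an inhibitor of protein phosphatase 1, had 2.03 and 1.86 CPM against 11.4 CPM in both libraries of the second pair. *KLK10*, a secreted serine protease, had 6.34 and 5.42 CPM against 19.9 and 18.3 CPM. The growth factors *FGF3* and *FGF19*, both on chromosome 11, were 3.40-fold and 3.16-fold higher in the second pair, at low levels of up to 6.27 and 7.86 CPM.

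Among the mucins and secreted ductal genes, 3 of 19 tested had a gap (*LCN2*, *ANXA10* and *TSPAN8*), all in this direction (1.95% of all genes), and 2 were higher in the first pair without overlap (18.6% of all genes). *TSPAN8*, a tetraspanin of gut and pancreatic epithelium, had 43.5 and 32.2 CPM against 86.8 and 65.5 CPM. Of the epithelial junction genes, *TJP3*, *ELF3* and *MARVELD3* were higher in shScr_2 and shEn1_2.2, whereas the tight junction gene *CLDN1* was higher in shScr_1 and shEn1_1.2, with 213 and 176 CPM against 101 and 94.3 CPM. The list of 38 had a median of 0.08, so these members did not stand for the list.

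The other leading genes of this direction were the ubiquitin ligase gene *NEURL3* (4.12-fold), the GTPase regulator gene *ARHGAP27* (3.33-fold), the interferon-inducible *IFI27* (2.99-fold), the noncoding RNA *OLMALINC* (4.63-fold) and the pseudogene *GTF2IP1* (3.14-fold). *GTF2IP1* has near-identical copies on chromosome 7 among which reads could be split, so its value is uncertain. *OLMALINC* lies beside *SCD*, and its 4 values, 1.85, 1.26, 10.6 and 5.02 CPM in the order shScr_1, shEn1_1.2, shScr_2 and shEn1_2.2, had the same order as those of *SCD* between the pairs. Of the 49 interferon-stimulated genes tested only *IFI27* and *XAF1* had a gap, and 9 were higher in the first pair against 20 in the second without overlap, beside 18.6% and 18.1% of all genes, so the share in the first pair was near that of all genes.

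**Figure D2:**
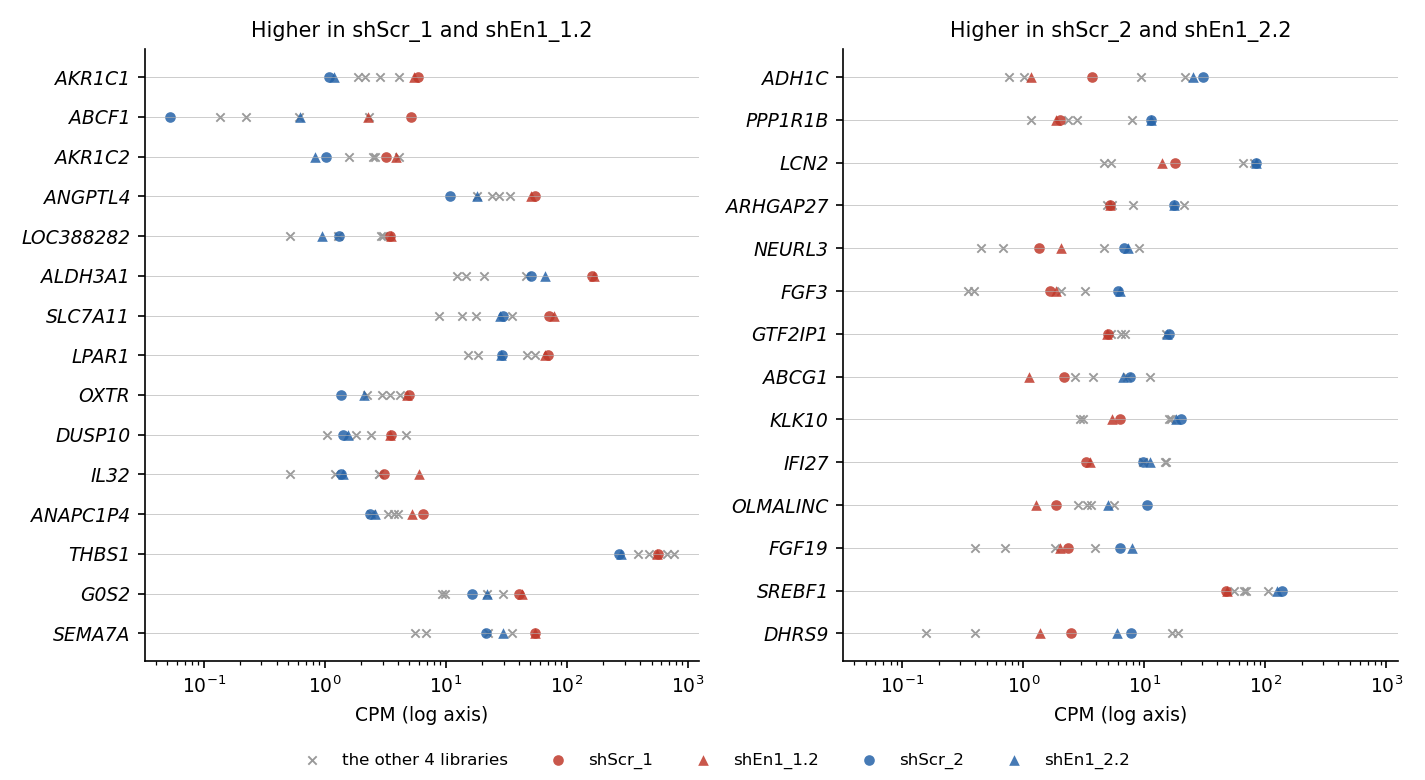
CPM on a log axis for the genes with the largest gap in each direction among those of at least 2 CPM on average (up to 15 a side), with red for shScr_1 and shEn1_1.2, blue for shScr_2 and shEn1_2.2, circles for shScr, triangles for shEN1 and grey crosses for the other 4 libraries. Red and blue symbols never cross in a row, by the rule that chose the genes, while the grey crosses lie on both sides, as for *ADH1C* at 0.767 to 21.5 CPM.

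Antioxidant genes led the opposite direction. Of 36 NRF2 target genes tested, 25 were higher in shScr_1 and shEn1_1.2 with no overlap (18.6% of all genes were) and 3 in the other pair (18.1% of all genes). A gap was present at 7, all of them higher in shScr_1 and shEn1_1.2 (1.23% of all genes). The list median was -0.35 on the log2 scale, and it was -0.33 between the shScr libraries and -0.36 between the shEN1 libraries. *AKR1C1* and *AKR1C2*, aldo-keto reductases that reduce steroids and reactive carbonyls, had the largest gaps. *AKR1C1* had 5.93 CPM in shScr_1, 5.45 CPM in shEn1_1.2, 1.08 CPM in shScr_2 and 1.19 CPM in shEn1_2.2. *AKR1C2* had 3.23 and 3.87 CPM against 1.03 and 0.836 CPM, and because these genes are adjacent near-copies on chromosome 10 some reads may be shared between them.

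*SLC7A11*, the cystine importer that feeds glutathione synthesis, was well above the low-count range. It stood at 71.7 CPM in shScr_1 and 78.8 CPM in shEn1_1.2, and at 29.7 CPM in shScr_2 and 28.2 CPM in shEn1_2.2, so that the pairs were 2.59-fold apart and partners lay close together. *NQO1*, a quinone reductase, had 564 and 532 CPM against 375 and 341 CPM, which is below the 1.5-fold gap. *FTL*, the ferritin light chain that stores iron, had 421 and 453 CPM against 264 and 243 CPM.

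*HMOX1*, the haem oxygenase, stood at 5.05 and 5.91 CPM against 2.52 and 3.53 CPM. *OSGIN1*, *PIR* and *TRIM16L* were the remaining members with a gap, at differences of 1.92-fold, 1.76-fold and 1.62-fold. *TXNRD1*, thioredoxin reductase, had 1098 and 1035 CPM against 910 and 790 CPM. The regulator genes themselves were close to level, with log2 differences of -0.05 for *NFE2L2* and -0.14 for *KEAP1*. *GPX2*, a glutathione peroxidase, and *GSR*, glutathione reductase, stood the other way, at 0.27 and 0.32. *ALDH3A1*, an aldehyde dehydrogenase outside the list, had 160 CPM in shScr_1 and 167 CPM in shEn1_1.2, against 50.8 CPM in shScr_2 and 66.3 CPM in shEn1_2.2.

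The antioxidant response element was searched in the letters TGACNNNGC on both strands, and 1 matching stretch is shown for each of 5 members as examples. The letters stood in 1661 of 10854 promoters (15.3%) and in 7 of the 26 list promoters at hand (26.9%). Of these 7 members only *PIR* had a gap, and *CBR1* and *PGD*, whose stretches are not shown, were near level at log2 differences of -0.06 and -0.13. The stretches below are from GRCh38.p14 and read along the gene's own strand, with the match in capitals. That of *GCLM*, at 64.6 and 74.7 CPM against 51.1 and 40.8 CPM, is on chromosome 1 at 93909446 to 93909474 (minus strand). That of *PIR* is on chromosome X at 15493289 to 15493317 (minus strand), that of *TXNRD1* on chromosome 12 at 104215670 to 104215698 (plus strand), and that of *ME1* on chromosome 6 at 83431170 to 83431198 (minus strand). *GPX2*, on chromosome 14 at 64942849 to 64942877 (minus strand), held the letters too, although it differed in the other direction.
GCLM: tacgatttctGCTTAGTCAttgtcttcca
PIR: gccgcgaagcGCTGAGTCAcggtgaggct
TXNRD1: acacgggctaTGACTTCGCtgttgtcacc
ME1: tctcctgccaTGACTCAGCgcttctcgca
GPX2: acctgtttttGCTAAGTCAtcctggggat
The list members with the letters had a median log2 difference of -0.33 and those without them -0.34, so the letters did not sort the members by size of difference.

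Some lipid droplet and fasting genes were also higher in shScr_1 and shEn1_1.2. *ANGPTL4*, a secreted inhibitor of lipoprotein lipase and a target of PPAR receptors and hypoxia, had 54.4 CPM in shScr_1, 50.8 CPM in shEn1_1.2, 10.8 CPM in shScr_2 and 18.1 CPM in shEn1_2.2, a 3.75-fold difference. *G0S2*, an inhibitor of the lipase that opens lipid droplets, had 40.6 and 42.7 CPM against 16.5 and 21.7 CPM, and *PLIN2*, the coat protein of the droplets, had 59.4 and 52.4 CPM against 29.2 and 26.8 CPM. In all, 4 of the 17 genes tested had a gap, each higher in shScr_1 and shEn1_1.2, and the median of that list was -0.17. Hypoxia genes as a list of 45 had a median of 0.01, with *ANGPTL4* and *LOXL2* higher in the first pair and *CA12* in the second.

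Immediate early genes and outputs of ERK signalling were broadly higher in shScr_1 and shEn1_1.2 by small steps. Of 47 tested, 33 were higher in that pair without overlap and 2 in the other (18.6% and 18.1% of all genes), and the median log2 difference was -0.37, while only 3 reached the 1.5-fold gap (1.23% of all genes). *JUN*, an AP-1 subunit, had 198 and 201 CPM against 92.1 and 128 CPM, and *HBEGF*, a ligand of the EGF receptor, had 32.1 and 22.1 CPM against 13.1 and 11.6 CPM. *SPRED3*, an inhibitor of the RAS pathway, was scarce at 2.14 and 2.15 CPM against 0.447 and 0.657 CPM. The phosphatase genes *DUSP5* and *DUSP6* and the AP-1 gene *FOSL1* shared the direction at log2 differences of -0.71, -0.40 and -0.40. *ETV4* and *ETV5*, also read-outs of ERK, had overlapping values at 0.03 and 0.09.

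Genes of YAP and TEAD, transcription partners that respond to cell tension and density, had 15 of 30 members higher in shScr_1 and shEn1_1.2 with no overlap and 0 in the other pair (18.6% and 18.1% of all genes), with a median of -0.23. *THBS1*, a matrix glycoprotein, had 566 CPM in shScr_1, 555 CPM in shEn1_1.2, 267 CPM in shScr_2 and 281 CPM in shEn1_2.2. The partners agreed closely and the pairs were 2.05-fold apart. *CCN2* and *CCN1*, matricellular targets, had log2 differences of -1.11 and -0.76 without a 1.5-fold gap, *CCN2* standing at 58.1 CPM in shScr_1 and 28.3 CPM in shEn1_1.2.

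Mesenchymal genes were higher in the same pair with no overlap at 11 of 24 members and in the other pair at 0 (18.6% and 18.1% of all genes), with gaps (1.23% of all genes) for *SNAI1*, *COL5A1*, *MYL9* and *LOXL2*. *VIM*, the intermediate filament gene of mesenchymal cells, had 1715 and 1869 CPM against 1095 and 1183 CPM. *KRT19*, a ductal keratin, stood the other way, with 1064 and 1014 CPM against 1420 and 1603 CPM, while *KRT7* had 1030 and 1053 CPM against 826 and 890 CPM. The 9 fibroblast markers, those under the filter included, summed to 5.79 and 4.36 CPM in shScr_1 and shEn1_1.2 and to 3.89 and 3.26 CPM in shScr_2 and shEn1_2.2. Only *ACTA2* and *COL1A1* passed the filter, and 5 of the 9 had 0 reads in all 4 libraries. Their part in the mesenchymal difference was not tested.

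Cytokine genes were divided. *CSF2*, *CXCL2* and *IL32* were higher in shScr_1 and shEn1_1.2, the granulocyte factor *CSF2* at 2.14 and 2.61 CPM against 0.263 and 0.597 CPM, whereas *LCN2* and the death ligand *TNFSF10* were higher in shScr_2 and shEn1_2.2. Of the 29 NF-kB chemokine and cytokine genes tested, 3 had a gap higher in the first pair (1.23% of all genes) and 2 in the second (1.95%). Without overlap, 13 were higher in the first pair and 5 in the second (18.6% and 18.1% of all genes). The list median was -0.31. *LCN2* is also among the secreted ductal genes above. The receptor genes *LPAR1* and *OXTR*, for lysophosphatidic acid and oxytocin, were 2.36-fold and 2.80-fold higher in shScr_1 and shEn1_1.2, *LPAR1* with 69.5 and 66.5 CPM against 29.1 and 28.3 CPM.

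*SEMA7A*, a membrane-anchored semaphorin, was 2.16-fold higher and the phosphatase gene *DUSP10* 2.30-fold higher in shScr_1 and shEn1_1.2. *ANAPC1P4*, a pseudogene of *ANAPC1*, and *LOC388282* completed the leading genes of this direction, together with *ABCF1*. *ABCF1* had 5.11, 2.30, 0.0526 and 0.627 CPM in the order shScr_1, shEn1_1.2, shScr_2 and shEn1_2.2, and as a gene of the MHC region, which the genome sequence also holds as alternative copies, it may have lost reads in the counting.

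Histone and translation genes showed a further difference. Of the 60 replication-dependent histone genes, 24 passed the filter and 6 had a gap. Of these, 5 were higher in shScr_2 and shEn1_2.2 (1.95% of all genes were) and 1, *H1-4*, in the first pair (1.23%). Among the 5, *H2AC20* and *H2BC13* had 0.176 and 0.176 CPM in shScr_1 and 0.230 and 0.0861 CPM in shEn1_1.2. They passed the filter only through the second pair, so their direction was tied to it. The list median was 0.48. Most of these messages lack a poly(A) tail, and their sum was only 69.0 to 113 CPM in these poly(A) libraries. The S-phase list of 48 genes, which are active at the same point of the cell cycle, had 0 gaps and a median of 0.01. Cytosolic ribosomal protein genes were higher in shScr_2 and shEn1_2.2 with no overlap at 33 of 78 (18.1% of all genes were) and in the first pair at 0 (18.6% of all genes were), with a median of only 0.14, which was 0.046 without shEn1_1.2. Their sum was 60183 CPM in shScr_1, 62204 CPM in shScr_2, 54402 CPM in shEn1_1.2 and 62566 CPM in shEn1_2.2, so the library shEn1_1.2 was the low one and the shScr libraries were near each other.

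Respiratory chain genes gave 35 of 75 against 1 with no overlap, beside the same 18.1% and 18.6% of all genes, at a median of 0.15, which was 0.096 without shEn1_1.2. Transcript length stood in the same direction: the median log2 difference of the pairs was 0.037 in the fifth of genes with the shortest transcripts and between -0.018 and 0.019 in the other length groups, and after a correction for GC content and length the medians were 0.12 for the ribosomal and 0.097 for the respiratory list. FOXO and growth arrest genes had a median of 0.23, with *BCL6* and *SESN3* at a gap. Proteasome, mitosis, MYC target, spliceosome, MHC class I, heat shock, unfolded protein response and metallothionein genes had 0 gaps each, at medians between -0.10 and 0.07.

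**Figure D3:**
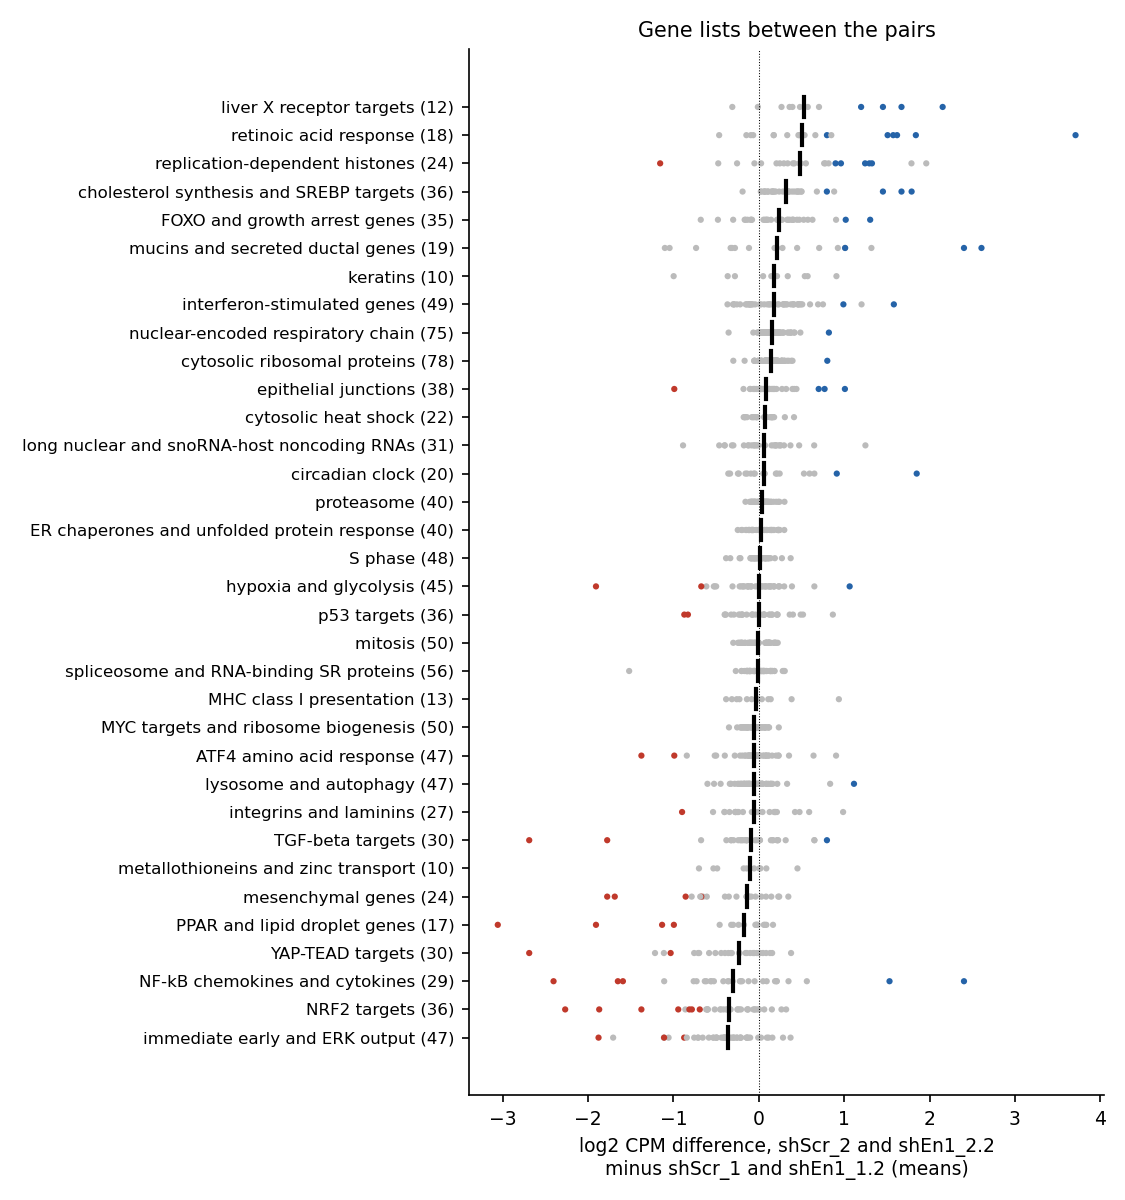
Each row is a gene list with the number of genes tested in brackets, each point 1 gene's log2 CPM difference of the second pair (shScr_2 and shEn1_2.2) minus the first, and the black bar the list median. Blue and red points have a 1.5-fold gap, and the medians run from -0.37 for immediate early and ERK output genes to 0.53 for liver X receptor targets around the dotted median of all genes.

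Many genes varied in 1 library alone and not by pairs. A library stood 1.5-fold or more above the other 3 at 127 genes (0.89%) for shScr_1, 202 (1.42%) for shScr_2, 147 (1.03%) for shEn1_1.2 and 200 (1.4%) for shEn1_2.2. It stood as far below them at 394 (2.76%), 272 (1.91%), 269 (1.88%) and 196 (1.37%) genes in the same order. The low side of shScr_1 was the longest list, and shScr_1 was also the library with the fewest detected genes, 16090. The median level of these sets was only 0.601 to 0.905 CPM.

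In shScr_1 alone, *SRSF10*, a splicing regulator, stood at 18.2 CPM against 0.402 to 0.956 CPM in the other 3, and *BOLA2B*, an iron-sulphur protein gene with a near-identical copy, at 33.2 CPM against 1.26 to 1.91 CPM. Reads of *BOLA2B* may be split with *BOLA2*. Neither jump was particular to shScr_1 in the series. Outside the 4 libraries, *SRSF10* was at 13.8 CPM in shScr_4 but at 0.600 CPM in shEn1_1.1, 0.717 CPM in shEn1_2.1 and 1.15 CPM in shScr_3. *BOLA2B* was at 35.2 CPM in shEn1_1.1 but at 0.717 to 2.26 CPM in the rest of these. The values of both genes are uncertain, and the source of the jumps was not tested. *FOSB*, an AP-1 gene, was at 6.52 CPM against 0.287 to 0.868 CPM, and *NUAK2*, a kinase gene of the AMPK family, at 9.90 CPM against 2.45 to 4.07 CPM. Below the others in shScr_1 were *PVRIG*, *HCN3*, *PODXL2* and *ZNF460*, each at or under 1.47 CPM, and 1 identifier without a symbol.

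In shScr_2 the RNA sensor gene *TLR3* was at 11.2 CPM against 3.76 to 5.26 CPM, and *TNFSF10*, which encodes TRAIL, at 9.02 CPM against 1.79 to 3.94 CPM. *RADX*, a replication fork protein gene, the pseudogene *GTF2IP4* and *OLMALINC* were the other leading ones. *ASMTL*, a gene that the X and Y chromosomes share, had 7 reads in shScr_2 against 163 to 237 in the others, *KLHL35* and the netrin gene *NTN1* stood at 2.92 CPM and 1.97 CPM there against at least 6.80 CPM and 4.46 CPM, and the noncoding *APPAT* was also low.

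In shEn1_1.2 the gastrin-releasing peptide receptor gene *GRPR* was at 4.39 CPM against 1.55 to 1.85 CPM, with *TNFRSF25*, *IL32* and 2 identifiers without a symbol also high. *RN7SL1*, the RNA of the signal recognition particle, was low there at 105 CPM against 222 to 356 CPM, and *ETFRF1*, *ATL1*, *ADH1C* and *SRSF10* were low too. RNA of that kind carries no poly(A) tail. In shEn1_2.2 the membrane protease gene *TMPRSS4* stood at 5.08 CPM against 2.58 to 2.59 CPM. *MICA*, *GTF2IRD2*, *HES7* and *SNORD104* were also high there, and *TBC1D3F*, *ANXA2R-AS1*, *MINAR1*, *ZNF280B* and *LPXN* low. *MICA*, *GTF2IRD2* and *TBC1D3F* have close copies or alternative sequences in the genome, and their values are uncertain.

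**Figure D4:**
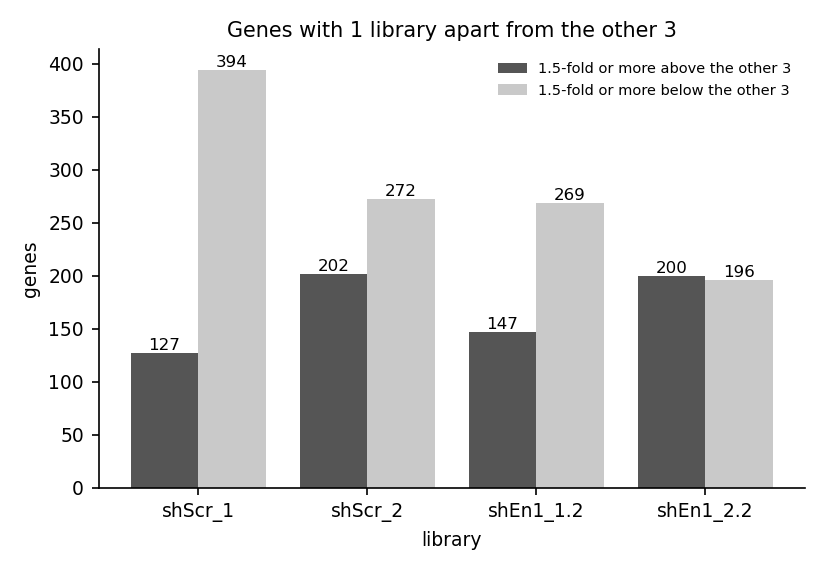
Bars from 0 give the number of genes, out of 14273, at which 1 library lay 1.5-fold or more above (dark) or below (light) the other 3. The low side of shScr_1, with 394 genes, is the tallest bar and its high side, with 127, the shortest.

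The labels cut across the pairs and were the one comparison that was tested. The 4 libraries were themselves chosen as similar after the counts had been seen. This choice may have made the spread within a label small, and the p-values rest on that spread. The edgeR quasi-likelihood test of the libraries labelled shEN1 against those labelled shScr called 1 of 14273 genes (0.00701%) at a Benjamini-Hochberg adjusted p below 0.05. Without adjustment 1512 genes (10.6%) had p below 0.05, 758 (5.31%) of them higher and 754 (5.28%) lower in shEN1. The called gene was *VAMP7*, a vesicle fusion protein gene of the second pseudoautosomal region. It had 15.8 CPM in shScr_1 and 15.4 CPM in shScr_2, against 1.52 CPM in shEn1_1.2 and 1.46 CPM in shEn1_2.2. Its log2 fold change was -3.38 (SE 0.23, edgeR adjusted p = 0.000117). With all 8 libraries *VAMP7* was not called. It has loci on both sex chromosomes, so the counting could drop or split its reads, and in the other 4 libraries it was at 8.30 and 2.31 CPM under the shScr label and 0.955 and 1.86 CPM under shEN1, so that the labels lay closer together there.

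The genes with the next smallest p, named after the values were seen, did not pass the threshold by edgeR. *HSPG2*, the basement membrane proteoglycan perlecan, had 411 and 454 CPM in shScr_1 and shScr_2, against 735 and 707 CPM in shEn1_1.2 and shEn1_2.2 (log2 fold change 0.74, edgeR adjusted p = 0.0700). *LAMA5*, a laminin chain of the same membrane, had 440 and 450 CPM against 680 and 664 CPM (0.59, adjusted p = 0.169). *KMT2D*, a histone methyltransferase gene, was at 0.74 with the same adjusted p of 0.169, and *PDCD10* at -0.53 with 0.401. By DESeq2 all 4 passed, at adjusted p = 1.37e-07 for *HSPG2*, 4.08e-05 for *LAMA5*, 7.81e-05 for *KMT2D* and 0.0364 for *PDCD10*. The edgeR fit with no filter also passed all 4 (adjusted p from 2.19e-06 for *HSPG2* to 0.0258 for *PDCD10*), and *HSPG2* alone passed with upper-quartile scaling (0.0481), library size alone (0.0373) and limma-voom (0.0349). After a correction for GC content and length, which takes out any trend with either, the edgeR adjusted p was 0.999 for each. In the other 4 libraries *HSPG2* had 650 and 609 CPM under shScr against 304 and 554 CPM under shEN1, the opposite direction. *PDCD10* was opposite there too, at 46.0 and 42.2 CPM under shScr against 63.0 and 47.3 CPM under shEN1. *LAMA5* and *KMT2D* had overlapping values there.

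GC content moved with the label difference. In the fifth of genes with the lowest GC content of the transcript the median log2 fold change was -0.18, with 8 genes higher and 490 lower at p below 0.05 before adjustment, and in the fifth with the highest it was 0.20, with 485 higher and 2 lower. The trend was present in each pair on its own, from -0.14 to 0.16 for shEn1_1.2 against shScr_1 and from -0.22 to 0.24 for shEn1_2.2 against shScr_2. Between the pairs the same GC groups had medians of only -0.027 to 0.047. A correction for GC content and length, added after the data had been seen, takes out such a trend by construction, whatever its source. The label medians after it, between -0.019 and 0.018, are therefore no separate result. It left 235 genes higher and 223 lower at that level of p. *VAMP7* stayed the 1 called gene, at -3.17 (edgeR adjusted p = 0.000379).

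Mitosis genes showed how far lists followed this trend. Of 50 tested, 19 were lower and 0 higher in shEN1 before adjustment of p (5.28% and 5.31% of all genes), and 0 passed the adjusted threshold. Their median GC content was 42.2%, against 48.2% over all genes, and the median log2 fold change was -0.18. After the correction 6 were lower and 1 higher, at a median of -0.08. Integrin and laminin genes had 6 of 27 higher (5.31% of all genes) and 0 lower before the correction and 1 higher after it. By edgeR none of the lists held a gene that passed the adjusted threshold, whereas genes that DESeq2 called included *LAMA5* of the integrin and laminin list, *HMMR* of the mitosis list and *BOP1* of the MYC target list. The NRF2 and SREBP lists that separated the pairs had label medians of 0.03 and -0.10.

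**Figure D5:**
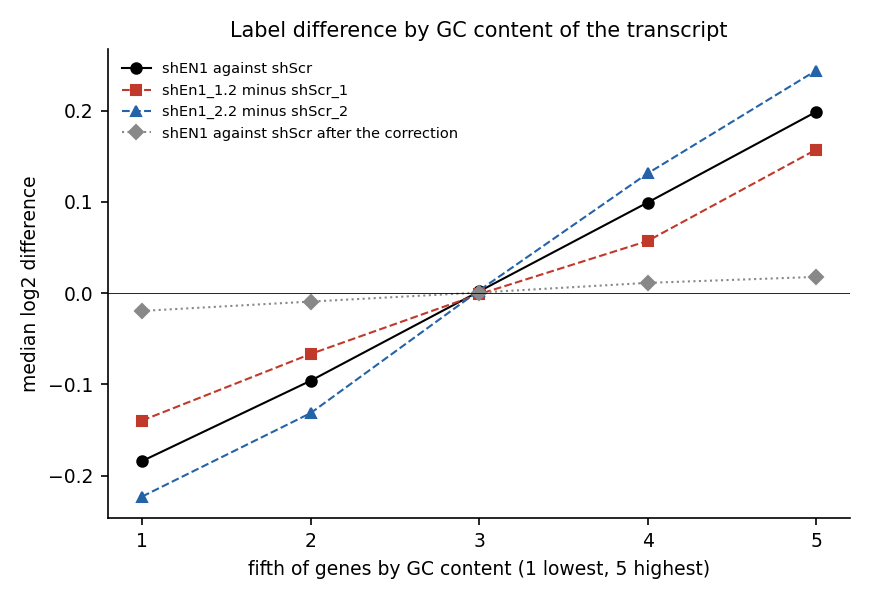
Median log2 difference in 5 equal groups of genes by transcript GC content, for shEN1 against shScr in the 4 libraries (black), within the first pair (red), within the second pair (blue) and after the correction (grey). All uncorrected lines rise from below 0 to above it, the black one from -0.18 to 0.20. The grey one stays within -0.019 and 0.018, since the correction takes out this trend by construction.

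The other 4 libraries, which the gap did not use, had medians between those of the pairs for these genes, on a common scale for all 8. For the 279 genes higher in shScr_2 and shEn1_2.2, the library shScr_3 was a median of 1.11 above the first pair and 0.056 below the second on the log2 scale, whereas shEn1_2.1 was 0.45 above the first and 0.74 below the second. For the 175 genes higher in shScr_1 and shEn1_1.2, their medians were 0.47 to 0.69 below that pair and 0.48 to 0.67 above the other. *LCN2*, for example, was at 80.6 CPM in shScr_3 and 65.7 CPM in shEn1_1.1 but at 5.28 CPM in shScr_4 and 4.63 CPM in shEn1_2.1. *DHRS9* ranged from 0.156 CPM in shScr_4 to 18.99 CPM in shEn1_1.1. *SCD*, by contrast, stood at 111 to 297 CPM in these 4 libraries, below both libraries of the second pair.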

How the data were processed

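RNA was extracted from SUIT2 cells and sequenced as poly(A) libraries with paired ends. Per the authors' methods, reads were aligned with HISAT2 to hg19 and counted with featureCounts, whereas the submitters' processing notes name mm9. The authors deposited unnormalised whole-number counts per Entrez gene. The annotation and the strand setting are not given in the sources used here, so overlapping and antisense genes could share reads. Symbols were matched for 23696 of 25702 genes through RefSeq (GRCh38.p14), and 2006 kept their identifier. Positions, length and GC content came from GENCODE on GRCh37 and covered 94.4% of the genes tested.

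The 4 libraries were filtered with filterByExpr (minimum count 10, leaving 14273 genes), scaled by TMM (factors 0.987 to 1.01) and set on the log2 CPM scale with a prior count of 2, which understates differences of low genes. The gap between the pairs was described with no test. The labels were compared with edgeR 4.0.16 (robust quasi-likelihood, Benjamini-Hochberg) in R 4.3.3, and *EN1* also with an exact permutation test. Since the spread was taken between 2 libraries a label, among libraries chosen as similar, p-values measure only that spread. The other 4 libraries were scaled together with these by TMM over all 8. Named genes were the 15 with the largest gap in each direction at a mean of 2 CPM or more, the 5 per library and direction that stood furthest apart, label calls, list members with a gap of 1.5-fold (up to 4 each way) and *EN1*. Other genes were chosen after their values were seen. The pairs, members and lists were chosen with earlier results of these data known. Alternatives used other scalings, filters, prior counts and gap sizes, each library left out, all 8 libraries, DESeq2 1.42.0 and limma 3.58.1. The statistics were tested on simulated data. Sequence of the shRNAs was not used here. Some genes that these rules name are not reported here.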

Additional observations from a re-analysis of the deposited data

Results flagged for a closer look

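Among 42 measures examined over the 4 libraries (totals, detected genes, list sums), 2 had 1 library far from the other 3 by Dixon's test, and chance alone at 1 in 20 would give 2.1. The number of genes with a count was 16090 in shScr_1 and 16344 to 16370 in the others. The summed level of the ATF4 amino acid response genes, which import and make amino acids, was 6213 CPM in shScr_2 and 6651 to 6704 CPM in the others.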

How the results depend on the processing

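The number of genes with a gap depended most on the definition. It was 865 with no filter (366 higher in shScr_1 and shEn1_1.2, 499 in shScr_2 and shEn1_2.2), 96 at a mean of 10 CPM or more (45 and 51), 1014 at a smaller gap of 0.322 on the log2 scale (414 and 600) and 139 at 2-fold (56 and 83). Leaving out 1 library in turn gave 1160 to 1348 (463 to 622 and 663 to 862), since fewer libraries must agree. Genes with 1 library apart numbered 5067 with no filter, 43 at a mean of 10 CPM or more, 4645 at the smaller gap and 600 at 2-fold. The other scalings kept these counts within 1.5 times.

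List medians kept their direction except that of the keratins, which was 0.18 and became -0.075 without shEn1_2.2; leaving out each library gave -0.075 to 0.18. The same omissions gave -0.37 to -0.30 for NRF2 targets, 0.24 to 0.40 for cholesterol synthesis and SREBP targets, 0.42 to 0.62 for liver X receptor targets, 0.45 to 0.64 for the retinoic acid response, -0.22 to -0.091 for PPAR and lipid droplet genes, -0.27 to -0.18 for YAP-TEAD targets, -0.40 to -0.16 for mesenchymal genes, 0.57 to 0.88 for histones, 0.11 to 0.37 for FOXO genes, 0.048 to 0.31 for interferon-stimulated genes 0.10 to 0.37 for mucins and secreted ductal genes, 0.046 to 0.21 for ribosomal proteins (0.14 with all 4), 0.096 to 0.22 for respiratory chain genes (0.15), -0.35 to -0.27 for NF-kB genes and -0.42 to -0.29 for immediate early genes. Moves of over 1.5 times came without shScr_1 (interferon-stimulated genes 0.31, mesenchymal -0.40, FOXO 0.35, lipid droplet -0.091), without shScr_2 (interferon-stimulated 0.10, mesenchymal -0.23, mucins 0.37, FOXO 0.11, lipid droplet -0.11), without shEn1_1.2 (ribosomal 0.046, respiratory 0.096, interferon-stimulated 0.048, FOXO 0.14) and without shEn1_2.2 (histones 0.88, mesenchymal -0.28, mucins 0.10, FOXO 0.37). At a mean of 10 CPM or more the medians were 0.61 for histones, 0.10 for interferon-stimulated genes, -0.20 for NF-kB genes, -0.32 for NRF2 targets, -0.17 for YAP-TEAD targets, -0.24 for mesenchymal genes, 0.47 for mucins, 0.55 for the retinoic acid response, 0.46 for liver X receptor targets and -0.012 for PPAR and lipid droplet genes. With no filter they were 0.52 for histones, 0.15 for interferon-stimulated genes, -0.50 for NF-kB genes, 0.40 for the retinoic acid response and -0.10 for lipid droplet genes. A prior count of 0.5 gave 0.52 for histones and -0.23 for lipid droplet genes, and one of 8 gave 0.38, -0.075 and, for the retinoic acid response, 0.46. Upper-quartile scaling and library size alone gave -0.22 each for YAP-TEAD targets and -0.16 each for lipid droplet genes. The correction for GC content and length, chosen after seeing the data, gave 0.39 for histones, -0.31 for NRF2 targets, -0.18 for YAP-TEAD targets, 0.53 for the retinoic acid response and -0.15 for lipid droplet genes.

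Between labels, the 1 call became 2 with upper-quartile scaling, 2 with library size alone and 2 with limma-voom (*HSPG2* and *VAMP7* each time), 38 with no filter, 25 with DESeq2 and 1512 at an unadjusted p, where the cause was not tested. With all 8 libraries edgeR called 0, with 44 genes at an unadjusted p below 0.05, and no other tool was run on them. Omitting shScr_1 gave 2 calls, shScr_2 4, shEn1_1.2 8 and shEn1_2.2 20, the lone library being assumed to vary like the rest. *VAMP7* was called in all of these edgeR and limma fits on the 4 libraries or fewer, but not with all 8. DESeq2 gave neither *VAMP7* nor *EN1* an adjusted p, its filter leaving out mean counts under 618. *EN1* stayed higher under the shEN1 label and uncalled in every fit that tested it. No paired analysis was possible because the labels compared shared fewer than 2 replicate numbers. At 2 libraries a label and mostly low counts, differences under 1.5-fold in genes near 1 CPM were within reach of sampling error.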
